A study of Mus musculus with 4 samples.

Results

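Oligodendrocyte precursor cells (OPCs) are the dividing glia from which myelin-forming oligodendrocytes (ODCs) arise. They persist in the adult cortex, where platelet-derived growth factor signalling through Pdgfra supports their proliferation, and they carry a chondroitin sulphate proteoglycan coat, ion channels and receptors for glutamate and GABA. On commitment they pass through a Gpr17-expressing state and then switch on myelin genes. OPC nuclei were examined here by RNA sequencing of single cortical nuclei, and were chosen by transcript counts. A nucleus was taken as OPC if it held at least 1 unique molecular identifier (UMI, 1 counted RNA molecule) of Pdgfra, at least 2 of Vcan and Cspg4 together and at least 1 of Lhfpl3, with 0 of Slc17a7 (excitatory neurons), Mog (ODCs) and Flt1 (endothelial cells). The rule found 467 of 35694 nuclei, or 1.31%.

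The question was how these precursors differ when brain creatine uptake is lost. CrT-KO mice were males whose single X-linked copy of Slc6a8, the creatine transporter gene, carries a germline deletion of several exons (CrT-/y), so every cell type lacked it and effects within and outside OPCs cannot be told apart. Controls were wild-type littermate males (CrT+/y). All were untreated adults (postnatal day 100) on a C57Bl/6J background, each of 4 libraries came from sorted nuclei of the right cortex of 1 animal, and each genotype had 2 libraries.

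Control libraries held 142 and 129 OPC nuclei among 8282 and 9295 nuclei, and CrT-KO libraries held 120 and 76 among 9270 and 8847. Over all nuclei, libraries held 51507483 to 65240843 UMIs, with medians of 5548 to 6700.5 UMIs a nucleus, and any pair of libraries shared 12 to 19 cell barcodes. Slc6a8 itself had 381 and 357 UMIs over all control nuclei and 106 and 84 in all CrT-KO nuclei, or 7.20 and 6.12 against 1.62 and 1.63 CPM (counts scaled to a total of 1000000 UMIs per population and library). Within OPC nuclei its UMIs numbered 0 and 6 for control and 0 and 1 for CrT-KO. A count of 0 allowed up to 7.34 CPM in the first control library and 7.03 CPM in the first CrT-KO library. The 6 UMIs of the second control library amount to 13.9 CPM, and at these counts no genotype difference of the transporter within OPCs was detectable.

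The genes that chose the nuclei are given as a description. Pdgfra, the receptor for platelet-derived growth factor, stood at 798 and 665 CPM in control and 708 and 768 CPM in CrT-KO OPC nuclei, and at 1.44 to 1.90 CPM in all other nuclei. Vcan and Cspg4, which encode the proteoglycans versican and NG2, averaged 1462 and 334 CPM in OPC nuclei against 15.0 and 1.78 CPM in all other nuclei. Lhfpl3, a tetraspan membrane protein gene, averaged 9747 against 440 CPM. Of 509 nuclei that met the positive conditions, 30 were left out for Slc17a7, 12 for Mog and 0 for Flt1. Just outside the rule, 48 nuclei held a single UMI of Vcan and Cspg4 together, 317 lacked only Pdgfra, and 0 lacked only Lhfpl3. Just inside, 1 nucleus sat at the minimum of every count.

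Markers outside the rule matched the name. Ptprz1, a receptor phosphatase, and Tnr, the matrix protein tenascin-R, were detected in all 467 nuclei. Sox10, the transcription factor of the whole lineage, was detected in 212 nuclei (45.4%) at 188 CPM, against 170 CPM in ODC nuclei and 8.25 CPM in all other nuclei. Olig2 and Olig1, the lineage's basic helix-loop-helix factors, were detected in 36 and 30 nuclei (7.71% and 6.42%), and averaged 24.2 and 20.5 CPM against 0.499 and 0.921 CPM in all other nuclei. Neu4 (sialidase 4) and C1ql1 (a secreted C1q-like protein) averaged 52.3 and 43.9 CPM against 0.342 and 0.350 CPM. Myelin genes were far below their ODC level. Mbp, encoding myelin basic protein, averaged 61.1 CPM in OPC nuclei and 2982 CPM in the 2799 ODC nuclei, which were chosen by UMIs of myelin genes including Mog and Mbp.

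The 15 genes with the highest ratio of OPC level to the level in all other nuclei described the population further, with no test since the nuclei were chosen on their transcripts. Beside Pdgfra, Cspg4 and Vcan they were Gucy2f, Afap1l2, Matn4, Sema3d, Calcrl, Ednrb, Kank1, Kcnh8, Prrx1, Emid1, Scel and Shc4. Gucy2f, a membrane guanylate cyclase best known from photoreceptors, had 100.4 and 83.4 CPM in control and 131 and 173 CPM in CrT-KO OPC nuclei, against 0.787 CPM elsewhere, and was detected in 123 of the 467 nuclei. Afap1l2, an adaptor of tyrosine kinase signalling, averaged 283 against 2.44 CPM, and the adaptor Shc4 415 against 9.57 CPM. Matn4 (a matrilin) averaged 126 against 1.25 CPM, Sema3d (a secreted semaphorin) 545 against 7.95 CPM and Emid1 (a secreted matrix protein) 342 against 7.34 CPM. The receptor genes Calcrl, for calcitonin gene-related peptide and adrenomedullin, and Ednrb, for endothelins, averaged 217 and 102 CPM. Kcnh8, a voltage-gated potassium channel gene, averaged 449 CPM, and 4.67 CPM in ODC nuclei. Ednrb, Kank1 (a cytoskeletal adaptor) and Prrx1 (a homeobox factor) were shared with the 98 astrocyte nuclei (chosen by Aqp4 and Slc1a3), at 96.8, 464 and 162 CPM there against 102, 417 and 143 CPM in OPC nuclei.

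**Figure D1:**
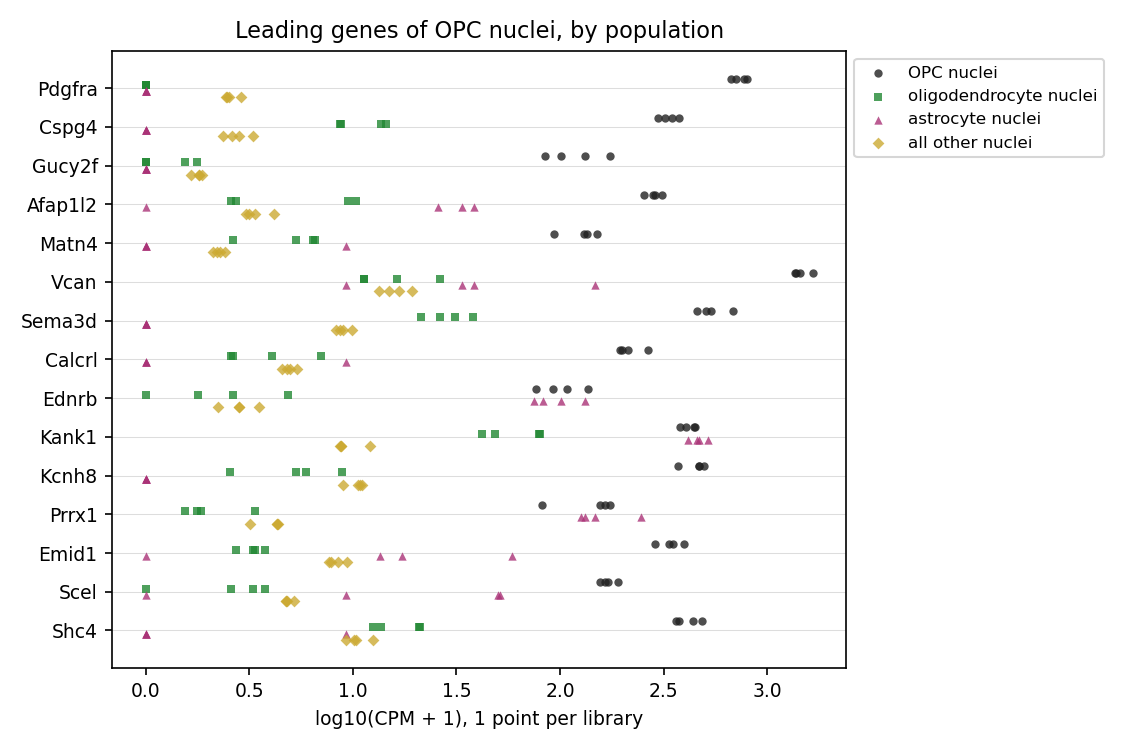
Level of the 15 leading OPC genes as log10(CPM + 1), with 1 point per library for OPC, oligodendrocyte, astrocyte and all other nuclei. OPC nuclei sit to the right of oligodendrocyte and all other nuclei for every gene, while Ednrb, Kank1 and Prrx1 reach similar levels in astrocyte nuclei (96.8, 464 and 162 CPM on average).

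OPC nuclei also held UMIs of genes used as markers of other cells. The neuron-wide marker list summed to 20326 and 21812 CPM in control and 20983 and 21500 CPM in CrT-KO OPC nuclei, against 39374 to 41911 CPM in all other nuclei. In the 32 members with more than 5000 UMIs the neuron-wide sum was 30405 to 35604 CPM per library, and the OPC identity list summed to 19621 to 26966 CPM, against 44698 to 47558 CPM in the other 435. Rbfox3, the neuronal nuclear antigen NeuN, was detected in 21 of these 32 nuclei (65.6%) and in 21 of the other 435 (4.83%). Scrublet, a doublet caller, marked 18 of the 467 members, of which 16 were among the 32. Microglial, endothelial and fibroblast lists summed to at most 138, 12.7 and 0 CPM in any OPC library, and Gja1, Gfap, Tmem119, Cldn5 and Pdgfrb, which the rule did not use, were at 0. The inhibitory neuron list summed to 9172 to 12812 CPM, carried by Nxph1, Erbb4 and Adarb2, which averaged 3337, 3906 and 2903 CPM, while Gad1 stood at 60.2 to 110 CPM. The astrocyte list (6031 to 6289 CPM) was carried by Gpc5, at 5243 to 5340 CPM, while the astrocyte glutamate transporter gene Slc1a2 stood at 367 to 513 CPM against 10374 CPM in astrocyte nuclei.

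OPC nuclei took a lower share of the nuclei in both CrT-KO libraries. They made up 1.71% (95% exact binomial interval 1.45 to 2.02) and 1.39% (1.16 to 1.65) of control nuclei, and 1.29% (1.07 to 1.55) and 0.859% (0.677 to 1.07) of CrT-KO nuclei. Intervals cover counting error only. The genotypes did not overlap, but the second control and first CrT-KO library differed by less than their intervals. The mean was 1.55% ± 0.231 in control and 1.08% ± 0.308 in CrT-KO (SD, n = 2 each), a difference of -0.474 points with a two-sided exact permutation p of 0.333, the smallest that 2 libraries against 2 can give. The library with the lowest share was also the shallowest, with a median of 5548 UMIs over all its nuclei. With every nucleus thinned to 1000 UMIs before the rule was applied, 57 of 7721, 45 of 8712, 40 of 8785 and 29 of 8001 nuclei met it (0.738%, 0.517%, 0.455% and 0.362%), in the same order (exact permutation p 0.333). As a share of OPC and ODC nuclei together the libraries overlapped, with 18.02% and 13.3% in control and 15.5% and 10.4% for CrT-KO libraries, at an exact permutation p of 0.667.

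**Figure D2:**
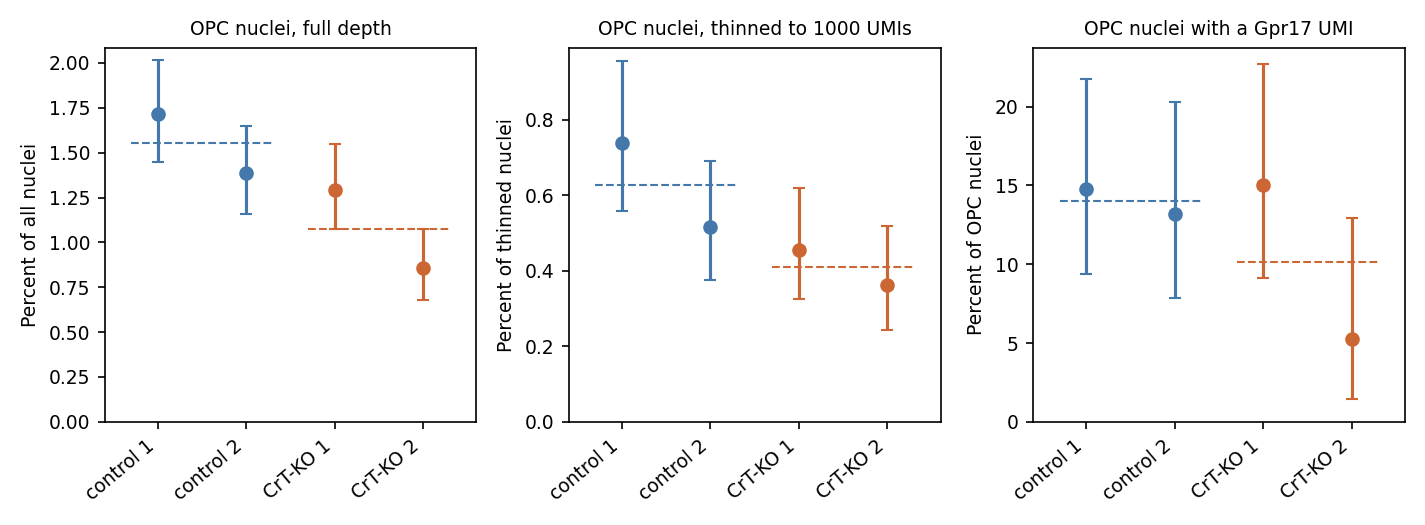
Percent of all nuclei that met the OPC rule at full depth and after thinning to 1000 UMIs, and percent of OPC nuclei with a Gpr17 UMI, in each control (blue) and CrT-KO (orange) library. Points carry 95% exact binomial intervals, and dashed lines are the means of 2 libraries. Both CrT-KO libraries lie below both controls in the first plots (1.29% and 0.859% against 1.71% and 1.39% at full depth), while in the last only the second CrT-KO library (5.26%) stands below the other libraries.

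The RNA content of OPC nuclei overlapped between genotypes. Median UMIs per OPC nucleus were 2502 and 3056 in control against 3029.5 and 2837 in CrT-KO, with an exact permutation p of 1, and median detected genes were 1320.5 and 1477 against 1474.5 and 1409. ODC nuclei were shallower, with medians of 1438 to 1584.5 UMIs.

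Gpr17, an orphan receptor gene of precursors that have begun to differentiate, was detected in 60 of the 467 nuclei (12.8%). The share was 14.8% and 13.2% in control and 15.0% and 5.26% in CrT-KO, where the second library held 4 of 76 nuclei. The genotype means of 14.0% ± 1.14 and 10.1% ± 6.88 (SD, n = 2 each) had an exact permutation p of 1. Leaving out the second CrT-KO library turned the difference from -3.85 to 1.02 points. At 1000 UMIs a nucleus the shares were 5.67%, 3.94%, 2.50% and 0%, the last 0 of 76, which allows up to 3.95%. They came from 8, 5, 3 and 0 nuclei. Both CrT-KO shares lay below both controls there, at an exact permutation p of 0.333, the smallest possible. Background was low, with Gpr17 detected in 4 of 5084 excitatory neuron nuclei (0.0787%, medians of 8691 to 10553 UMIs), 1 of 1192 microglia nuclei (0.0839%) and 10 of 2799 ODC nuclei (0.357%).

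Nuclei with and without a Gpr17 UMI had median depths of 2890.5 and 2809 UMIs, and are set side by side as a description. Matn4 was detected in 9 of 60 nuclei with Gpr17 (15.0%) and in 154 of 407 without it (37.8%). Its level was 68.1, 19.98, 91.9 and 0 CPM with Gpr17, and 163, 144, 141 and 98.1 CPM without it, in the order control 1, control 2, CrT-KO 1 and CrT-KO 2, where the last library held only 4 nuclei with Gpr17 and its 0 gives no direction. Nkx2-2, a transcription factor of differentiating precursors, was detected in 12 of 60 nuclei against 32 of 407. Neu4 was detected in 13 of 60 against 53 of 407. Bmp4 and Enpp6, genes of committed and newly formed oligodendrocytes, were detected in 2 and 1 of the 467 nuclei.

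Transcripts of mitosis were sparse in OPC nuclei. UMIs of at least 2 of 9 mitotic genes (Mki67, Top2a, Cenpf, Cenpe, Aspm, Kif11, Kif15, Bub1 and Knl1) were found in 5 of 467 nuclei (1.07%), against 2 of 2799 ODC nuclei (0.0715%). ODC nuclei were shallower, and the shares were not compared at equal depth. The OPC nuclei with such UMIs were 2 of 142 and 0 of 129 in control and 3 of 120 and 0 of 76 in CrT-KO, with an exact permutation p of 1. The zeros allow up to 2.33% and 3.95%, so no genotype difference was detectable at this depth. At least 1 of the genes was found in 19 of 467 nuclei (4.07%), namely 7, 3, 9 and 0 in the order above, and a nucleus without such UMIs may still be cycling. Of the 3 in CrT-KO, 2 had more than 5000 UMIs, and without such nuclei the difference turned from 0.546 to -0.281 points.

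Gene by gene, UMIs were summed over the OPC nuclei of each library and the sums were tested with edgeR. In total the OPC nuclei held 408539 and 431830 UMIs in control against 426624 and 236974 in CrT-KO. Raw UMIs of a gene given below are not scaled for this, so the second CrT-KO library reads low in them. Of 5529 genes, 3 were called at an adjusted p under 0.1 (0.0543%), and 289 (5.23%) had an unadjusted p under 0.05. Cntnap4, a contactin-associated neuronal adhesion protein, was the called rise. Col25a1, a membrane collagen of neurons, and Cpne4, a calcium-dependent membrane-binding copine, were the called falls. For these 3 genes the genotypes did not overlap, which adds no support beyond the calls made on the same values. The share of all 5529 genes without overlap was not counted.

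Cntnap4 (chromosome 8, 112570043 to 112882717, GRCm38) had 6 and 15 UMIs in control against 36 and 24 in CrT-KO, or 14.7 and 34.7 against 84.4 and 101 CPM. The log2 difference between genotypes was 1.85 ± 0.39 SE (adjusted p 0.0962 by edgeR). In CrT-KO, 18 of the 36 and 16 of the 24 UMIs came from nuclei with more than 5000 UMIs, against 1 of 6 and 6 of 15 in control. Without such nuclei the log2 fold change was 1.25 with an edgeR adjusted p of 0.975. The richest nucleus gave 9 of the 36 and 9 of the 24 UMIs. In CrT-KO 1 it was Scrublet-marked, with 1 Gad1 and 3 Gad2 UMIs. In CrT-KO 2 it was unmarked, with 5 Gad1 and 6 Gad2 UMIs. With the richest nucleus of each library set aside, Cntnap4 stood at 12.6 and 30.6 CPM in control and 65.2 and 66.8 CPM in CrT-KO.

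Col25a1 (chromosome 3, 130131501 to 130599877) had 67 and 19 UMIs in control against 7 and 9 in CrT-KO, and the log2 difference between genotypes was -2.06 ± 0.46 SE (adjusted p 0.0962 by edgeR). Of the 67, 50 came from 1 nucleus of 13191 UMIs, which also held 3 Pdgfra, 4 Gad1 and 2 Gad2 UMIs. With the richest nucleus of each library set aside, Col25a1 stood at 43.0 and 33.1 CPM in control and 11.9 and 17.8 CPM in CrT-KO.

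Cpne4 (chromosome 9, 104547286 to 105034544) had 68 and 25 UMIs in control against 15 and 6 in CrT-KO, and the log2 difference between genotypes was -1.81 ± 0.40 SE (adjusted p 0.0962 by edgeR). A single nucleus of 16430 UMIs gave 53 of the 68. With the richest nucleus of each library set aside, Cpne4 stood at 38.3 and 28.4 CPM in control and 28.5 and 17.1 CPM in CrT-KO, so that the second control and the first CrT-KO library stood level.

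Under several alternatives the log2 differences of the 3 genes were close to the main fit while the calls were lost. With the replicate number as a block the log2 differences of Col25a1, Cntnap4 and Cpne4 were -2.15, 1.92 and -1.94, with DESeq2 they were -1.99, 1.88 and -1.86, and without Scrublet-marked nuclei they were -2.07, 1.82 and -1.68, with none called. The block and DESeq2 refit the same sums. Scrublet did not mark the nuclei that gave 50 of 67 Col25a1 and 53 of 68 Cpne4 UMIs. These fits could thus not show how far the falls rest on those nuclei. All 3 had too few UMIs to be tested under the stricter rule or after thinning to 1000 UMIs, and so had Col25a1 and Cpne4 without nuclei over 5000 UMIs (an alternative chosen after seeing the data). The block, DESeq2, the fit without Scrublet-marked nuclei, the stricter rule, thinning and the fit without nuclei over 5000 UMIs each called 0 genes, with 308, 42, 240, 189, 120 and 218 genes at an unadjusted p under 0.05. Leaving out 1 library moved the count to 8 (without control 1), 9 (without control 2), 31 (without CrT-KO 1) and 7 (without CrT-KO 2), where the lone library of a genotype is assumed to vary like the others. Without control 1 none of the 3 was called, and the log2 differences of Col25a1, Cpne4 and Cntnap4 were -0.87, -0.92 and 1.35. Without CrT-KO 1 Col25a1 was at -1.42 and not called, while under the looser rule Cpne4 reached -2.83.

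The 5 smallest p-values in each direction that were not called are given by their values. Arhgef3, which encodes a RhoA exchange factor, had 153 and 113 UMIs in control against 72 and 41 in CrT-KO (375 and 262 against 169 and 173 CPM). The log2 difference between genotypes was -0.90 ± 0.22 SE (adjusted p 0.127 by edgeR). No single nucleus gave more than 8 of these UMIs, and they came from 73, 68, 43 and 25 nuclei. Apoe, the main lipid carrier secreted by brain glia, had 71 and 61 UMIs in control against 42 and 9 in CrT-KO, at the log2 difference between genotypes was -1.07 ± 0.29 SE (adjusted p 0.230 by edgeR). It was detected in 56 of 142 and 44 of 129 control nuclei and in 37 of 120 and 8 of 76 CrT-KO nuclei. Without the first CrT-KO library Apoe passed, with an edgeR adjusted p of 0.00837 and a log2 fold change of -2.04, so its size rests largely on the second CrT-KO library.

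Dbi, the acyl-CoA binding protein gene, had 14 and 27 UMIs in control against 4 and 2 in CrT-KO (log2 difference -2.39 ± 0.58 SE, adjusted p 0.127 by edgeR). Shisal1 had 11 and 18 UMIs against 1 and 1, and Pcmtd2 104 and 87 against 50 and 32. For these 5 genes lower in CrT-KO, nuclei over 5000 UMIs held between 6.56% (Apoe) and 23.4% (Dbi) of the UMIs. Under the looser rule Arhgef3, Dbi and Shisal1 passed the threshold, with edgeR adjusted p of 0.0364, 0.0934 and 0.0934, and 7 genes were called in all.

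Among the genes higher in CrT-KO, Cntnap5c and Cntnap5a were carried largely by single nuclei, and Vopp1 was not. Cntnap5c and Cntnap5a, relatives of Cntnap4, had 13 and 13 against 37 and 23 UMIs and 77 and 70 against 163 and 53 UMIs (log2 fold changes 1.54 and 0.83, edgeR adjusted p 0.118 and 0.230). Of the Cntnap5c UMIs in CrT-KO, 28 of 37 and 20 of 23 came from 1 nucleus each, and 104 of the 163 Cntnap5a UMIs came from 1 nucleus of 27697 UMIs that Scrublet marked. Mctp1, a calcium-binding membrane protein gene, had 53 and 61 against 96 and 74 UMIs, Slc35f3, a solute carrier gene, had 11 and 17 against 39 and 18, and Vopp1 had 8 and 17 against 29 and 24. Of the 39 Slc35f3 UMIs, 12 came from 1 Scrublet-marked nucleus. Its log2 fold change was 1.34, but 0.73 without Scrublet-marked nuclei and 0.64 without nuclei over 5000 UMIs. Vopp1 was detected in 8, 14, 22 and 17 nuclei, with at most 4 UMIs in any. Part of its interval overlaps Lancl2, and since the use of strand in the counting was not stated its count is uncertain.

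**Figure D3:**
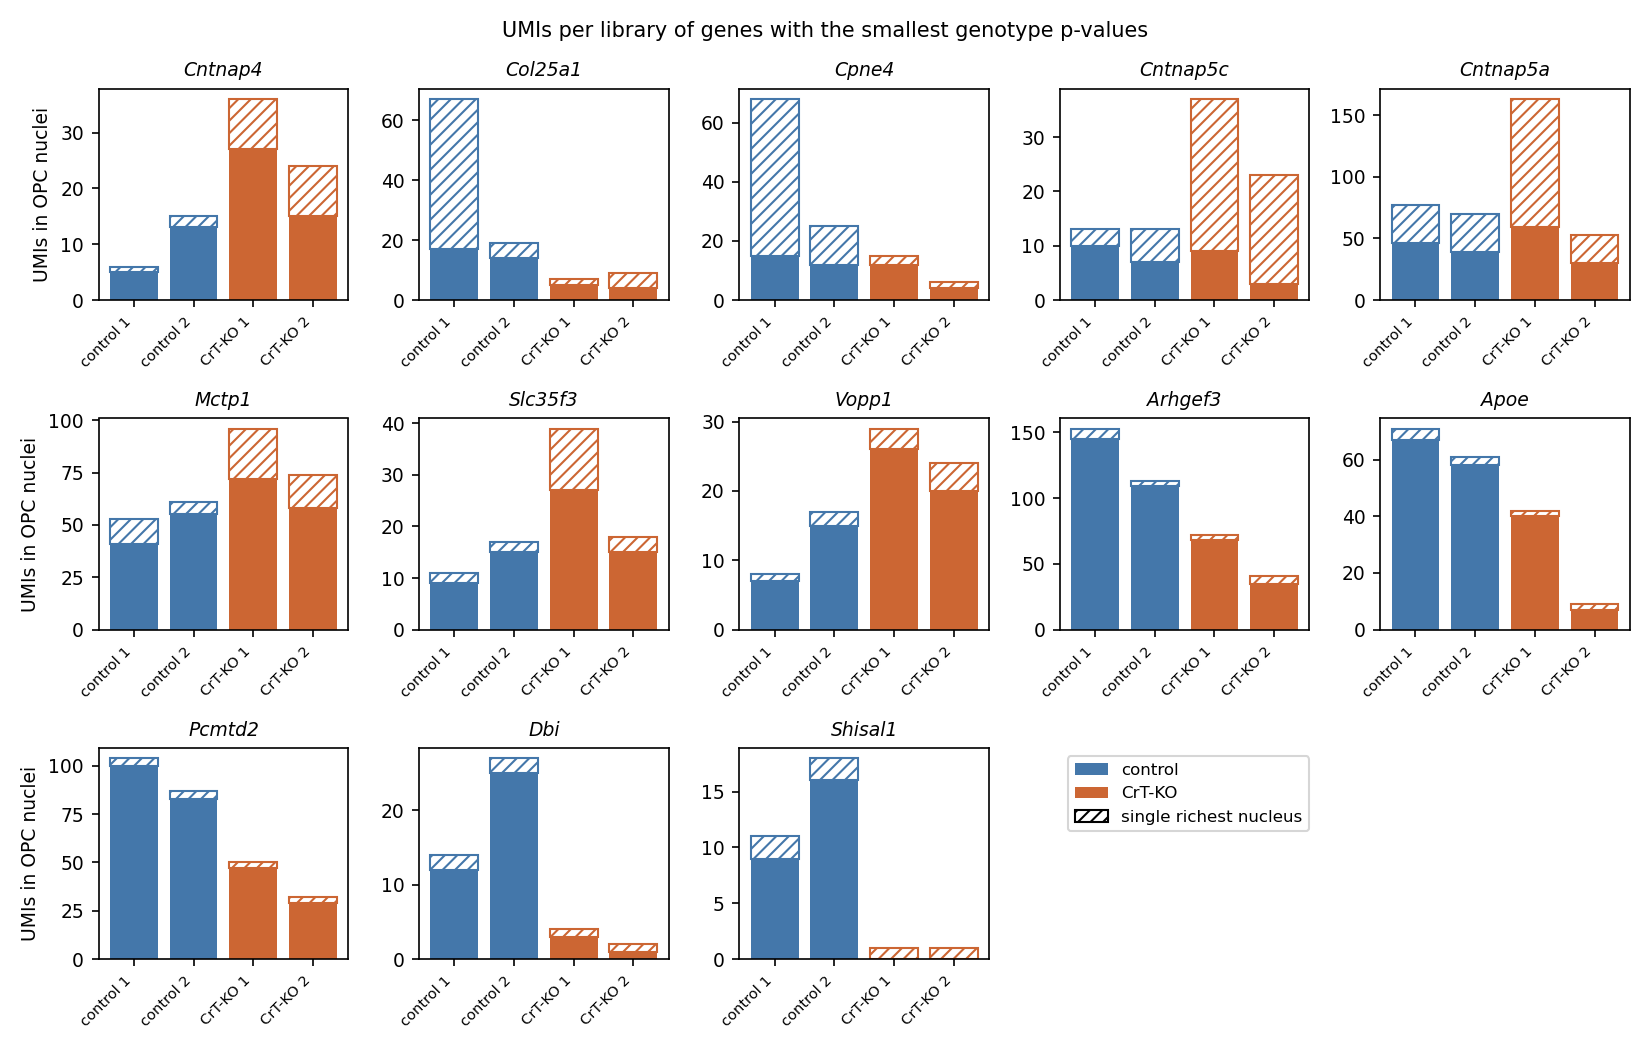
UMIs in OPC nuclei of the 13 genes with the smallest genotype p-values, in each control (blue) and CrT-KO (orange) library, with the part from the single richest nucleus hatched. For Col25a1 and Cpne4 the hatched nucleus holds 50 of 67 and 53 of 68 UMIs of the first control library, whereas for Arhgef3 it holds at most 8 UMIs in any library.

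The pathways of OPC biology are described by counts of tested genes, read against the 0.0543% called and the 5.23% at an unadjusted p under 0.05 among all genes, whose median log2 fold change was -0.000427. None of the list members below was called. Of 28 OPC identity genes 25 were tested, 21 were lower in CrT-KO, the median was -0.10 and only Pcdh15, a protocadherin gene, had an unadjusted p under 0.05. Without nuclei over 5000 UMIs 20 of 25 were lower, at the same median of -0.10. Some marker lists of other cells leaned the other way, while the neuron-wide, inhibitory neuron and microglial sums overlapped between genotypes. All 6 tested inhibitory neuron markers were higher in CrT-KO, 2 of them at an unadjusted p under 0.05, and 3 of 5 were higher without nuclei over 5000 UMIs. This list is not particular to other cells. OPC nuclei held its Nxph1, Erbb4 and Adarb2 at high levels, and Nxph1 is also among the OPC identity genes. The excitatory neuron list summed to 786 and 806 CPM in control against 827 and 1013 CPM in CrT-KO, and the mature oligodendrocyte list to 115 and 137 against 202 and 152 CPM. Without nuclei over 5000 UMIs the excitatory sums were 719 and 703 against 775 and 846 CPM. The mature oligodendrocyte sums then overlapped, at 129 and 125 against 229 and 113 CPM. The part of RNA from other cells in the lower identity genes was not tested further. Pcdh15 had 4969 and 5312 CPM in control and 4512 and 4097 CPM in CrT-KO (log2 difference -0.26 ± 0.12 SE, adjusted p 0.926 by edgeR). The other members with most UMIs were close in all libraries. Tnr had 6288 and 6686 against 6005 and 6528 CPM, Dscam, a cell adhesion gene, 4719 and 4791 against 4264 and 4245 CPM, and Xylt1, which starts proteoglycan sugar chains, 3434 and 3367 against 3518 and 3190 CPM.

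Of 29 growth factor ligand and receptor genes 15 were tested, 10 were higher and the median was 0.09. Erbb4, a neuregulin receptor gene, had 3236 and 3573 CPM in control and 3621 and 5195 CPM in CrT-KO (log2 difference 0.36 ± 0.13 SE, adjusted p 0.777 by edgeR). Without nuclei over 5000 UMIs its log2 difference was 0.11, and without the first CrT-KO library it was called. The neuregulin genes Nrg1 and Nrg3 and the neurotrophin receptor gene Ntrk3 differed by log2 0.09, 0.13 and 0.09, each with an edgeR adjusted p of 0.998. Among 19 tested relay genes downstream of these receptors the median was -0.04, and Nf1, Pik3r1 and Etv1 lay between -0.05 and 0.13. The list of Notch, Wnt and BMP genes, which hold precursors back from differentiation, had 10 tested members and a median of 0.09.

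Of 19 genes of differentiation commitment 13 were tested, with 6 higher, 7 lower and a median of -0.10. Bcas1, an early oligodendrocyte gene, had 509 and 428 CPM in control and 450 and 422 CPM in CrT-KO. Fyn, a kinase of early myelination, had 453 and 461 against 403 and 312 CPM (log2 difference -0.34 ± 0.19 SE, adjusted p 0.957 by edgeR). Of 20 myelin genes only 8 had enough UMIs, at a median of 0.11, and Nfasc, Gjc3, Ugt8a and Fa2h differed by log2 0.30, -0.04, -0.11 and 0.25. Only 3 of 30 cell cycle genes were tested. Ccnd1, the G1 cyclin D1 gene, had 24 and 9 UMIs in control against 11 and 4 in CrT-KO, and Cdk6, its kinase partner, had 10 and 15 against 19 and 6. These raw UMIs are not scaled for the smaller OPC total of the second CrT-KO library.

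Of 30 matrix and proteoglycan genes 18 were tested, with 5 higher, 13 lower and a median of -0.07. Acan, encoding the proteoglycan aggrecan and named after its value was seen, had 19 and 20 UMIs in control against 8 and 7 in CrT-KO (log2 difference -1.02 ± 0.45 SE, adjusted p 0.926 by edgeR). Among glutamate receptor genes 24 were tested, with 12 higher and 12 lower, at a median of 0.01. Grid1, Grm5 and Grik2, among the members with most UMIs, lay between 0.04 and 0.17. Among 10 tested GABA-A receptor subunit genes the median was -0.09, and among 25 tested channel genes it was -0.02. The channel list held neighbours on opposite sides, also named after their values were seen. Kcnip1 had 436 and 475 CPM in control and 584 and 684 CPM in CrT-KO, whereas Kcnip3 had 565 and 553 against 457 and 329 CPM (log2 fold changes 0.46 and -0.49, edgeR adjusted p 0.778 for both). Both encode calcium-binding partners of Kv4 channels. All 30 synaptic adhesion genes were tested, with 16 higher and 14 lower at a median of 0.01, and Lsamp, Lrrc4c and Nlgn1 lay between -0.12 and -0.01.

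Creatine genes were thinly covered. Ckb, the brain creatine kinase gene, had 35 and 29 UMIs in control against 26 and 7 in CrT-KO (log2 difference -0.64 ± 0.35 SE, adjusted p 0.957 by edgeR). Gatm, which starts creatine synthesis, had 56 and 42 against 55 and 20 UMIs (log2 fold change -0.08), at 112 CPM on average in OPC nuclei against 419 CPM in ODC nuclei. Of 28 apolipoprotein and cholesterol genes 10 were tested, with 7 lower and a median of -0.28. Of 20 chaperone genes 10 were tested, with 7 lower and a median of -0.60, of which Hspa5 and Hsph1 had unadjusted p under 0.05 from 40 and 80 UMIs in all. Of 18 glucocorticoid-responsive genes 9 were tested, with 7 higher and a median of 0.21, and of 20 immediate-early genes only Nr4a1 was.

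**Figure D4:**
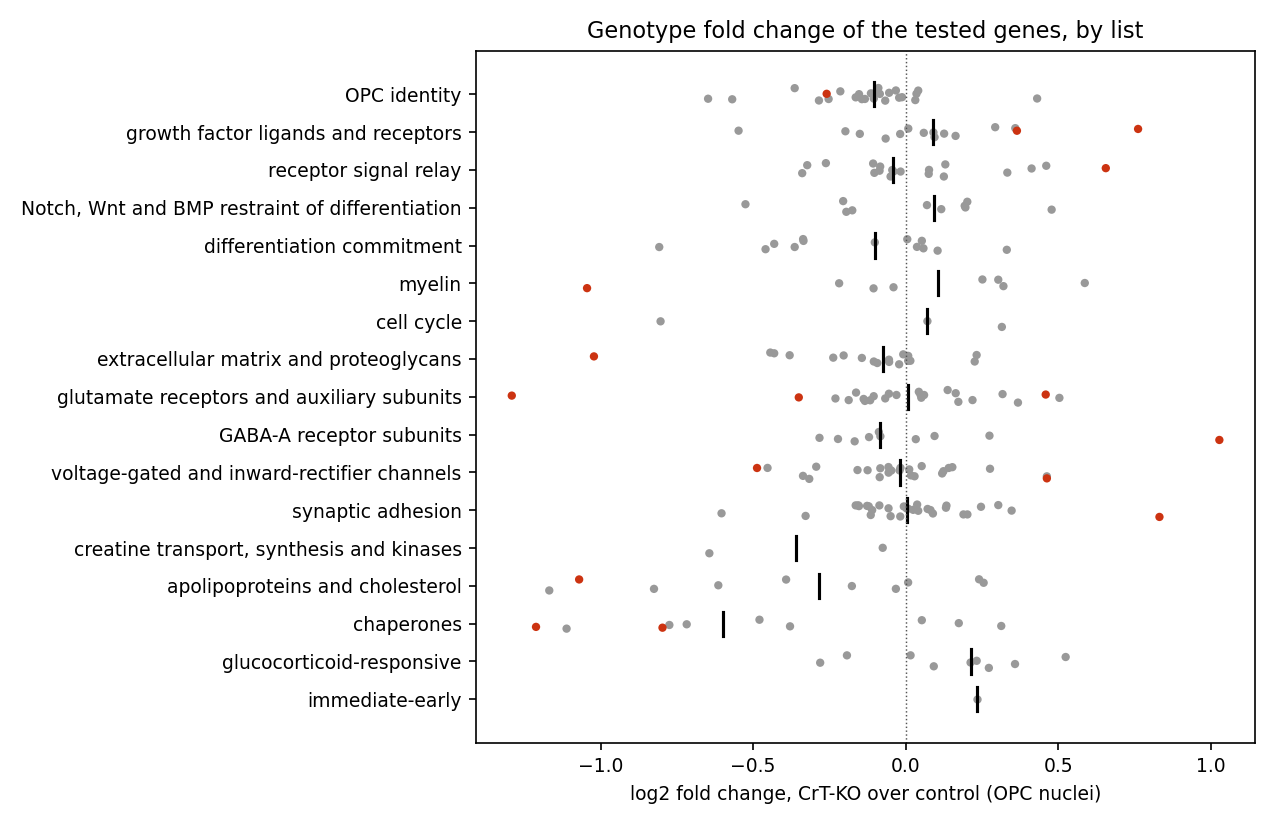
Log2 fold change (CrT-KO over control) in OPC nuclei of each tested gene, by list, with the list median as a black bar and genes at an unadjusted edgeR p under 0.05 in red. Medians run from -0.60 (chaperones) to 0.23 (immediate-early, 1 gene), and the OPC identity genes crowd around their median of -0.10.

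Whether the genotype difference in OPCs departed from that in other nuclei was tested as an interaction in edgeR, with the library as a block. Against ODC nuclei, 40 of 8288 genes were called (0.483%), 35 with a more positive difference in OPCs and 5 with a more negative one. For several of these the OPC levels were close and the ODC levels were lower in CrT-KO. Sox6, a transcription factor of precursors named after its values were seen, had 1948 and 1968 CPM in control and 1957 and 1705 CPM in CrT-KO OPC nuclei, but 120 and 129 against 41.1 and 45.5 CPM in ODC nuclei (interaction 1.43, SE 0.22). Nxph1, which encodes the neurexin ligand neurexophilin 1, had 3388 and 3189 against 2822 and 3950 CPM in OPC nuclei and 427 and 372 against 126 and 163 CPM in ODC nuclei (interaction 1.499, SE 0.18). Tnr and Afap1l2 followed, with ODC levels of 401 and 343 against 211 and 254 CPM and of 8.48 and 9.34 against 1.58 and 1.72 CPM. The Afap1l2 levels in CrT-KO ODC nuclei rest on very few UMIs. Erbb4 was lower in CrT-KO ODC nuclei (3490 and 3369 against 2571 and 2589 CPM), with an interaction of 0.76 (SE 0.16).

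Of the 28 identity genes, 3 were thus called against ODC nuclei (Sox6, Nxph1 and Tnr). OPC nuclei held 12.3 (Nxph1), 21.1 (Tnr) and 22.6 (Sox6) times the ODC level of these transcripts, and the part of free RNA or of doublets in them was not tested beyond the doublet caller. Without Scrublet-marked nuclei 10 genes were called, among them Sox6, Nxph1, Afap1l2 and Kcnip1 but not Tnr or Erbb4. In the other direction stood Fkbp5, a glucocorticoid-induced co-chaperone gene also named after its values were seen, with 152 and 218 against 232 and 152 CPM in OPC nuclei and 167 and 314 against 506 and 485 CPM in ODC nuclei (interaction -0.99, SE 0.25, edgeR adjusted p 0.0573), a call not made without Scrublet-marked nuclei.

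Against all other nuclei together, 15 of 14321 genes were called (0.105%), 9 with a more positive and 6 with a more negative difference in OPCs, and 14 without Scrublet-marked nuclei. Arhgef3 was among them. It stood at 103 and 92.4 CPM in control and 109 and 97.9 CPM in CrT-KO over all other nuclei, where the genotypes overlapped (interaction -1.05, SE 0.21, edgeR adjusted p 0.00332). Shisal1 was at 12.3 and 13.7 against 15.3 and 11.2 CPM in other nuclei, against 26.9 and 41.7 versus 2.34 and 4.22 CPM in OPC nuclei (interaction -3.66, SE 0.85, edgeR adjusted p 0.0301). Against ODC nuclei neither was called, with interactions of -0.90 (SE 0.30, edgeR adjusted p 0.345) for Arhgef3 and -3.16 (SE 1.32, edgeR adjusted p 0.625) for Shisal1, and neither had passed in OPC nuclei alone. Apoe was not called in either interaction, with values of -0.99 (SE 0.35) against ODC nuclei and -0.80 (SE 0.32) against all other nuclei.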

How the data were processed

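Nuclei from the right cortex of 2 control and 2 CrT-KO mice were profiled by droplet sequencing, 1 library per animal. The authors deposited UMI counts per gene and nucleus, made with Cell Ranger 3.1.0 on a GRCm38 (mm10) reference built for nuclear pre-mRNA, and Seurat 3.1.4 is also named in the submitters' processing notes. Whether counting used strand was not given in the sources used here. The study compared nuclei with a rank-sum test, whereas here UMIs were summed per library, since nuclei are not replicates. OPC members and gene lists were chosen with earlier results of these data known.

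Members were found by raw UMIs, as were the ODC (myelin genes including Mog and Mbp) and astrocyte nuclei set beside them. Sums were tested with edgeR 4.0.16 (R 4.3.3: TMM scaling, filterByExpr, quasi-likelihood test, Benjamini-Hochberg adjustment, threshold 0.1), and DESeq2 1.42.0 was an alternative. Interactions used the library as a block. Each SE was derived from the test, as the absolute log2 difference divided by the square root of the F statistic. Shares were compared by two-sided exact permutation tests over the 6 assignments of libraries, which cannot reach 0.05. Intervals are exact Clopper-Pearson at 95%, and floors are 3 counts. Doublets were marked with Scrublet in scanpy 1.11.5, and kept in the members unless stated. Alternatives were a looser rule (515 nuclei), a stricter rule (322), doublets left out, thinning to 1000 UMIs (which left out 2475 shallower nuclei, 3 of them members), no filter on low counts, the replicate block, a threshold of 0.05 and leaving out each library. Leaving out nuclei over 5000 UMIs was chosen after seeing the data.

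Genes named were those called, the 5 with the smallest p in each direction, the 15 with the highest OPC ratio and at least 20 UMIs per library, the 4 with most UMIs in each list, and the genes of the rule. A few of these genes are not reported here. Others (markers, Gpr17 and cycling genes, and list members at an unadjusted p under 0.05 or called in an interaction) were chosen after their values were seen. Of 21933 genes, 21816 (99.5%) were located by identifier in the GRCm38 annotation. On simulated counts for the OPC comparison, edgeR called 130 of 200 genes changed by 1 log2 unit (5520 genes tested) and 198 of 200 changed by 2 (5495 tested). It also called 5 and 20 unchanged genes, and DESeq2 called 60 and 170 of the 200. Changed genes were drawn from those with a mean of at least 20 UMIs a library, and all genes had the same dispersion. The rates therefore do not apply to genes with fewer UMIs, such as Dbi and Shisal1.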

Additional observations from a re-analysis of the deposited data

Results flagged for a closer look

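Each result here was flagged because the genotype difference in OPC nuclei departed from that in other nuclei by an interaction test in edgeR with the library as a block. This held for 40 genes against ODC nuclei and for 15 genes against all other nuclei. Among the genes with the smallest genotype p in OPCs, the difference in OPCs minus that in ODC nuclei was 2.56 for Cntnap4, 2.45 for Cntnap5c, 1.12 for Cntnap5a, -1.58 for Cpne4 and -2.44 for Dbi on the log2 scale. Against all other nuclei it was 1.88 for Cntnap4, 1.43 for Cntnap5c, 1.46 for Vopp1, -1.92 for Col25a1, -1.71 for Cpne4, -1.05 for Arhgef3 and -3.66 for Shisal1. Without Scrublet-marked nuclei, Cntnap4 alone of those named was still called against ODC nuclei. Against all other nuclei, all those named but Cntnap5c were still called. With the richest nucleus of each library set aside, Cntnap5c stood at 25.3 and 16.7 CPM in control and 22.6 and 13.4 CPM in CrT-KO OPC nuclei. These genes were picked for their p in the same OPC libraries, so the interactions are not independent of that choice. No outlying library could be tested with 2 libraries a group.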

How the results depend on the processing

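The count of 3 genes called in OPC nuclei became 0 with DESeq2, the replicate block, Scrublet-marked nuclei left out, the stricter rule, thinning to 1000 UMIs, nuclei over 5000 UMIs left out and a threshold of 0.05. It became 7 under the looser rule and 4 with no filter on low counts, and ranged from 7 to 31 when 1 library was left out. The interaction count against ODC nuclei fell from 40 to 10 without Scrublet-marked nuclei. The replicate numbers are not stated to mark a shared litter or day. Deviations of same-numbered libraries from their genotype means were only weakly correlated, at 0.0669 over 5529 genes. The block left 308 genes at an unadjusted edgeR p under 0.05. The difference in OPC share kept its direction throughout. With 1 library left out it ran from -0.692 to -0.257 points. No change of sign was possible there, since both CrT-KO libraries lay below both controls. With 1 library left out the Gpr17 difference ran from -8.72 to 1.02 points, the cycling difference from -0.704 to 1.80 points, and the difference in median UMIs from -122.75 to 431.25. The cycling difference was -0.281 points without nuclei over 5000 UMIs, and -0.158 without the second control library. The causes of these changes were not tested. Over the alternatives in which they could be tested, the 3 called genes kept their call 14 times and lost it 14 times, and the named genes that were not called stayed so 94 times and gained a call 12 times, with no change of direction. The threshold of 0.05 is not part of this tally, and none of the 3 genes passed it. With 76 to 142 OPC nuclei a library, most pathway genes with few UMIs could not be tested.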
